A study of Mus musculus with 16 samples.

Results

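Genes of the neuromuscular junction and of the muscle's response to denervation were followed across 4 genotypes of mouse. The 8 genes were taken by symbol from a deposited table of 831 genes, and all 8 were found there: the acetylcholine receptor subunits Chrna1, Chrnd and Chrng, the receptor kinase Musk, the adhesion molecule Ncam1, and the denervation-responsive genes Runx1, Dach2 and Kcnn3. RNA of whole tibialis anterior muscle, a leg muscle, was sequenced at postnatal day 30 in 16 libraries, 4 from each genotype. The genotypes were mdx/miR-133b-/-, which carries the mdx mutation together with loss of the microRNA miR-133b, mdx alone, miR-133b-/- alone, and wild-type Control. The mdx mutation lies in Dmd, the dystrophin gene, and makes the mouse a standard model of the human muscle disease named after Duchenne. Skeletal muscle makes miR-133b. The labels give the age and the genotype (mdx is written there as mdx-/-) but neither strain nor sex, and nothing says that the libraries of a group are from different animals. The p-values therefore cover only library-to-library spread, which may be technical.

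At the junction the motor nerve releases acetylcholine, which opens a receptor of 5 subunits in the fibre membrane. Nerve-derived agrin acts through the kinase encoded by Musk to cluster that receptor, and the fetal receptor carries the gamma subunit, encoded by Chrng, in place of the adult epsilon subunit. When a fibre loses its nerve, it makes receptor subunits along its whole length again. Newly formed fibres that no nerve has yet reached do so as well. The myogenic factors MyoD and myogenin drive these genes through the E-box, the letters CANNTG, and in innervated fibres the repressor encoded by Dach2 holds myogenin down.

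The E-box is shown here in the promoters of 3 of these genes, because the receptor and Musk promoters are the textbook place where it acts in muscle. Each window is 300 bases, 250 before and 50 after the start given by RefSeq (GRCm38.p6), read 5′ to 3′ on the gene's strand, with E-boxes in capitals. Windows existed for 6 of the 8 genes, and the windows for Chrna1 (chr2:73580289-73580588, minus strand), Chrng (chr1:87205561-87205860, plus strand) and Musk (chr4:58285712-58286011, plus strand) read as follows.
Chrna1: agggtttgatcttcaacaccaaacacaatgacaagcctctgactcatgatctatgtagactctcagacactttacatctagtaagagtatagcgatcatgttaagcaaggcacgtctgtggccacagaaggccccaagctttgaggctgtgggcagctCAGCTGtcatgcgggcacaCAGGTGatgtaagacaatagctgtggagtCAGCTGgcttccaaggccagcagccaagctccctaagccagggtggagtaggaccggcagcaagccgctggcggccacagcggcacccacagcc
Chrng: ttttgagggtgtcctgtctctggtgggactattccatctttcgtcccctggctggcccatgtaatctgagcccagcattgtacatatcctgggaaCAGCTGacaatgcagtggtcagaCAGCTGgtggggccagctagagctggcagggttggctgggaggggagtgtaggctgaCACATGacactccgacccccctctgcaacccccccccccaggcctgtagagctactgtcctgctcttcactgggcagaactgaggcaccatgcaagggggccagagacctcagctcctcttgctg
Musk: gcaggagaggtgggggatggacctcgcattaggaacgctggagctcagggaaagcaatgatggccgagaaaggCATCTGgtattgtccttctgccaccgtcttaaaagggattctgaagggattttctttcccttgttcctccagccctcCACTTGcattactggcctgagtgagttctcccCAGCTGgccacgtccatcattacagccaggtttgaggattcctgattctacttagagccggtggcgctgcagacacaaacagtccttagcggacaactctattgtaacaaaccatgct

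Each of these windows held 3 E-boxes, as did the first of the 2 Runx1 windows, whereas Dach2 had 1 in its first window and 0 in its second, and Kcnn3 had 0. The E-box reads the same on both strands, and among 32851 windows of all genes 72.3% held at least 1 and 17.6% at least 3. The form CAGCTG, itself counted among the E-boxes, occurred 2 times in the Chrna1 window (first bases at -92 and -44 from the start), 2 times in the Chrng window (-155 and -132) and 1 time in the Musk window (-68). At least 1 CAGCTG was present in 16.3% of all windows and at least 2 in 1.9%. The N-box CCGGAA, a motif of genes active at synaptic nuclei, was searched on both strands and occurred only in the second Runx1 window, against 14.9% of all windows. These matches describe letters in fixed windows and no factor's binding was measured.

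The microRNA that the miR-133b-/- mice lack is printed with its seed, bases 2 to 8, in capitals.
mmu-miR-133b-3p: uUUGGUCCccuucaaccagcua

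The letters that pair with this seed, GGACCAA, were absent from the longest annotated 3′ untranslated region of each of the 8 genes. Of 780 listed genes with such a region, 76 (9.7%) held them. The region searched was short for Kcnn3 (380 bases) and Musk (590 bases), where the median listed gene had 1415. The seed of the other strand, mmu-miR-133b-5p, was not searched.

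Values are given as scaled reads, the counts of each library after multiplication by a factor of the authors' own. A library held 2356990 to 6000033 reads in the 831 genes, and its reads in other genes were not analysed here. The table is a selection: each listed gene's average in mdx/miR-133b-/- lies at least 1.72-fold from that in miR-133b-/-, so that contrast gets no test. Comparisons that use either of those groups share libraries with the selection. The fold changes of mdx against Control use none of those libraries, but its p-values use a spread estimated over all 16. That comparison too sets muscle with the mdx mutation against muscle without it. It is therefore not independent of the selection, and its calls are read against the share called among all 831 genes. The description label of 14 of the 16 samples names the code of another sample, and libraries were matched by the code in the title. Fold changes come from limma on log2(scaled reads + 1) over all 831 genes, with Benjamini-Hochberg adjustment and a threshold of 0.05. Skeletal muscle fibre genes were abundant in every library: 5 of 11 in the list are in the table (Ckm, Myh4, Actn3, Pvalb and Mb). Their summed scaled reads ranged from 258447 to 323576 in mdx/miR-133b-/-, 380915 to 556719.7 in mdx, 321305 to 736481 in miR-133b-/- and 600693 to 741208 in Control. Within miR-133b-/-, library 2 stood apart from the other 3, which lay between 631908 and 736481. Libraries of miR-133b-/- and mdx/miR-133b-/- also differed more among themselves: a gene's median SD on the log2 scale was 0.38 in mdx/miR-133b-/-, 0.21 in mdx, 0.43 in miR-133b-/- and 0.27 in Control. Genes of Schwann cells and nerve (14 in the list) and of satellite cells (9) have no member in the table and were not analysed here.

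**Figure D1:**
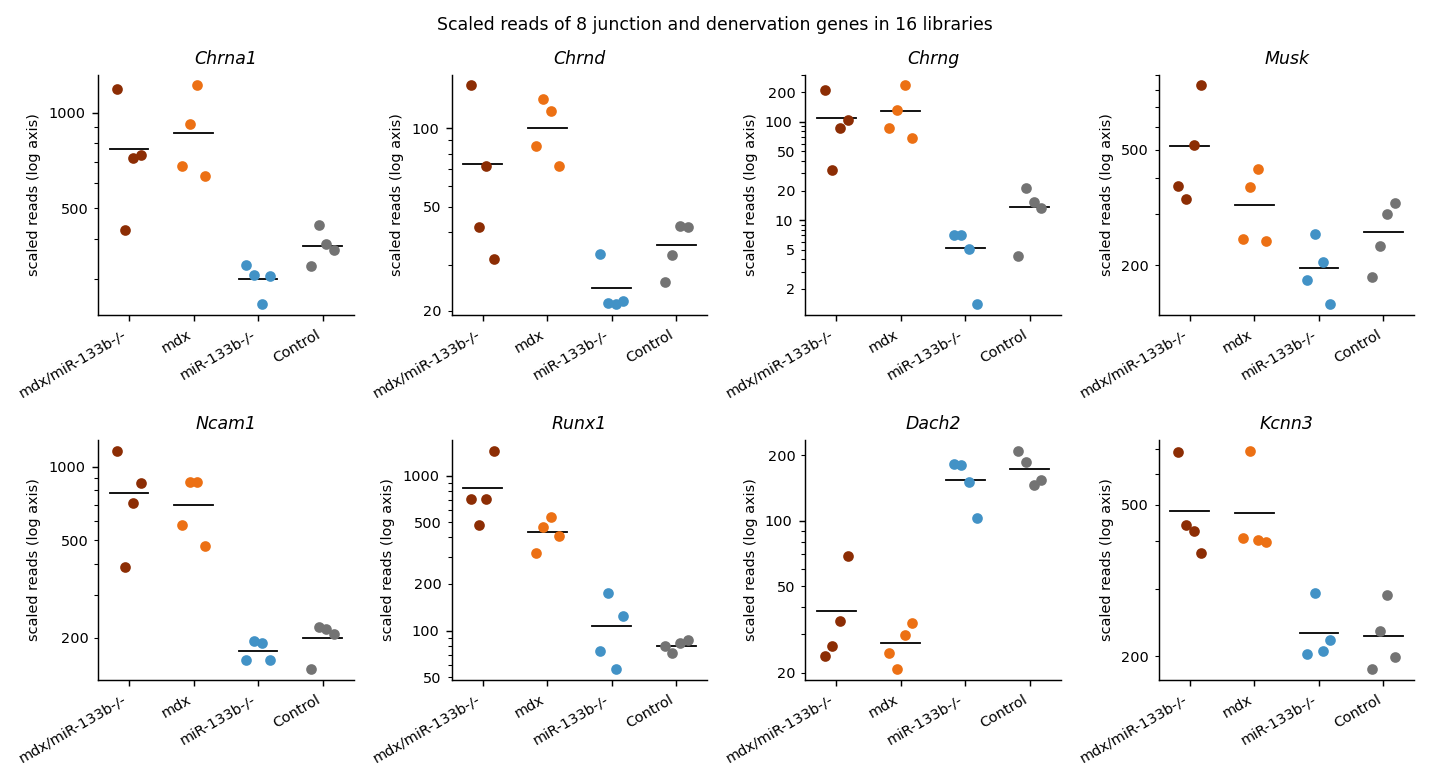
Scaled reads (log axis) of the 8 genes in each of the 16 libraries, 1 panel per gene; points are libraries and the line is the mean of the 4 libraries of a genotype. Dach2 lies lower, and Chrng, Ncam1, Runx1 and Kcnn3 higher, in every library with the mdx mutation than in every library without it. The mdx/miR-133b-/- and miR-133b-/- libraries among them are those on whose contrast the table was selected. The share of listed genes apart over all 16 libraries was not computed. In mdx against Control alone 46.2% of listed genes lay fully higher and 24.2% fully lower.

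Dystrophin-deficient muscle was compared with wild-type muscle to see what accompanied the mdx mutation. Of the 8 genes 6 rose and 1 fell, and only Musk did not pass. Across the 831 genes limma called 66.2% in this comparison, 44.5% higher and 21.7% lower, the share against which 7 of 8 is to be read. That split depends on the scaling. As deposited, 370 listed genes were higher and 180 lower. The counts were 260 and 270 with relative log expression factors, and 214 and 303 with each library's GC and length trend taken out. Both alternatives were computed on the 831 selected genes alone, so here and below they may also take out real differences. The median log2 fold change of the 8 genes was 1.30, beside 0.44 for all listed genes. The 8 genes were chosen with earlier results of these data known. Neither this median nor the 7 of 8 called is therefore a test of them as a set. Of the 8 genes 6 had every mdx library above every Control library and 1 had them all below, where 46.2% and 24.2% of listed genes did so. In whole muscle a change in the number of cells or fibres and a change in RNA per cell cannot be told apart.

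Among the receptor subunits Chrng (chr1:87204657-87212694, plus strand, GRCm38), which encodes the fetal gamma subunit, changed most. Its 4 mdx libraries held 86.3, 132, 234 and 67.9 scaled reads, against 4.29, 21.5, 15.4 and 13.4 in Control. The groups were far apart, and the Control values rest on 6 to 34 reads each. On the log2 scale the rise was 3.18 (SE 0.60, limma adjusted p = 0.000291), a fold of 9.04.

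Chrna1 (chr2:73563215-73580338, minus strand) encodes the alpha subunit, which binds acetylcholine. It stood at 679, 922, 1217 and 634 scaled reads in mdx, against 329, 443, 385 and 371 in Control, with no overlap between the groups. That was a 2.19-fold rise (log2 1.13, SE 0.26, limma adjusted p = 0.00118), and 0.54 on the log2 scale (adjusted p = 0.0451) with the GC and length trend taken out. Chrnd (chr1:87190607-87200070, plus strand), the delta subunit gene and the neighbour of Chrng on chromosome 1, held 85.2, 129, 116 and 71.8 scaled reads in mdx, against 25.7, 32.8, 42.4 and 41.8 in Control. It rose 2.75-fold (log2 1.46, SE 0.40, limma adjusted p = 0.00409), and again every mdx library was above every Control library.

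Musk (chr4:58285960-58374303, plus strand) was the exception. Its mdx libraries held 246, 373, 428 and 242 scaled reads, against 182, 233, 299 and 328 in Control, and the groups overlapped. The log2 fold change was 0.30, with a 95% interval of -0.30 to 0.89 (limma adjusted p = 0.348). The sign of this value depends on the scaling: it was -0.06 with relative log expression factors and -0.19 with each library's GC and length trend taken out.

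Ncam1 (chr9:49502136-49798925, minus strand), whose product spreads over the surface of denervated and regenerating fibres, held 579.5, 869, 868 and 473 scaled reads in mdx, against 149, 222, 216 and 208 in Control. It rose 3.42-fold (log2 1.77, SE 0.28, limma adjusted p = 6.62e-05), and by 1.14 on the log2 scale with the GC and length trend taken out. Both Ncam1 and Runx1 overlap an antisense gene model, by 417 and 106 exonic bases, and whether counting used strand is unknown here, so their values are uncertain to that extent.

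Runx1 (chr16:92601466-92826149, minus strand), a transcription factor that denervation induces strongly in fibres, held 318, 469, 542 and 407 scaled reads in mdx, against 79.3, 72.0, 82.6 and 86.6 in Control. The Control libraries were close together, with a log2 SD of 0.11. Its rise of 5.27-fold (log2 2.40, SE 0.33, limma adjusted p = 2.42e-05) was second in size to that of Chrng among the 8 genes. Kcnn3 (chr3:89520164-89675132, plus strand), a small-conductance calcium-activated potassium channel found in fetal and denervated muscle, held 409.6, 692, 403 and 399 scaled reads in mdx, against 185, 232, 289 and 199 in Control. It rose 2.07-fold (log2 1.05, SE 0.23, limma adjusted p = 0.00101), a call that was lost once the GC and length trend of the libraries was taken out (log2 0.30, adjusted p = 0.238).

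Dach2 (chrX:113297510-113836386, plus strand) moved the other way. It held 24.7, 20.8, 29.8 and 33.7 scaled reads in mdx, against 210.1, 186, 146 and 154 in Control, so that the highest mdx library lay far below the lowest Control library. On the log2 scale this was -2.64 (SE 0.32, limma adjusted p = 9.89e-06), a 6.22-fold lower level. The mdx libraries still held 34 to 60 reads of it each.

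**Figure D2:**
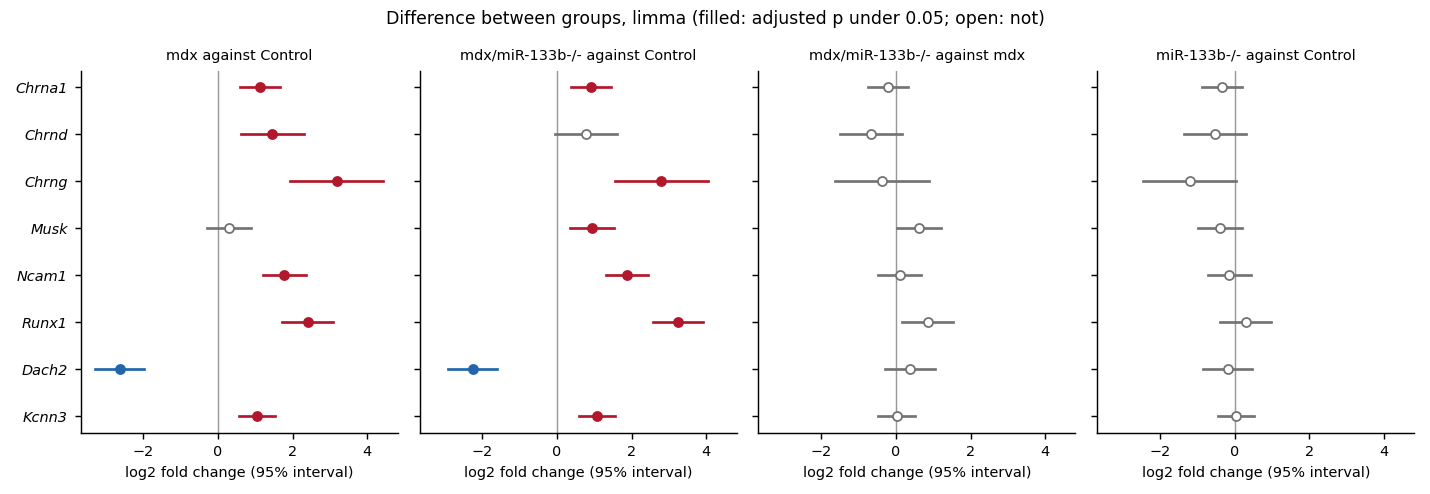
Log2 fold change of the 8 genes in 4 comparisons, with 95% intervals from limma; filled points passed at an adjusted p of 0.05 (red higher, blue lower) and open points did not. In both comparisons with Control that include the mdx mutation 7 genes passed, and in the other 2 comparisons none did.

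The double mutant was set against the same Control libraries, so this comparison shares them with the last one, and its values are given side by side with it. Of the 8 genes 6 were higher and 1 lower, where limma called 91.2% of all listed genes (54.3% higher, 36.9% lower). Here too the split moved, with 451 genes higher and 307 lower as deposited, 323 and 332 with relative log expression factors, and 255 and 314 with the GC and length trend taken out. Libraries lay fully above Control in 5 of the 8 genes and fully below in 1, against 44.9% and 33.5% of listed genes. The median log2 fold change was 0.997 for the 8 genes, beside 0.73 for all listed genes. Runx1 had the largest difference: 705, 478, 709.8 and 1448 scaled reads in mdx/miR-133b-/-, against the 72.0 to 86.6 of Control. Its log2 fold change was 3.25 (SE 0.33, limma adjusted p = 5.87e-07), beside 2.40 for mdx.

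Chrng held 211, 32.5, 87.2 and 105 scaled reads in mdx/miR-133b-/-, and all 4 libraries exceeded the Control maximum of 21.5. It was higher by 2.80 on the log2 scale (SE 0.60, limma adjusted p = 0.000401), beside 3.18 for mdx. Ncam1 held 1161, 388, 714 and 858 scaled reads, with a log2 fold change of 1.88 (SE 0.28, limma adjusted p = 2.02e-05), beside 1.77 for mdx, and of 1.16 with the GC and length trend taken out.

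Chrna1 was less clearly separated. Its mdx/miR-133b-/- libraries held 1191, 427, 721 and 735 scaled reads, and library 2 lay below the highest Control library at 443. The gene passed (log2 0.92, SE 0.26, limma adjusted p = 0.00286) but not with the GC and length trend removed (0.23, adjusted p = 0.385).

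Chrnd did not pass in the double mutant. It held 146, 41.7, 71.6 and 31.6 scaled reads, of which libraries 2 and 4 lay within the Control range of 25.7 to 42.4. The log2 fold change was 0.79 with a 95% interval of -0.05 to 1.62 (limma adjusted p = 0.068). Without mdx/miR-133b-/- 2 it passed (0.97, adjusted p = 0.0371), as it did without mdx/miR-133b-/- 4 (1.10, adjusted p = 0.0145) and in limma with no variance trend (0.79, adjusted p = 0.0493). Without mdx/miR-133b-/- 1, the highest library, Chrnd stood at 0.37 (adjusted p = 0.333), and with relative log expression factors at 0.39.

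Musk passed here and not in mdx, which is no test of one mutant against the other. Set directly against mdx, the double mutant did not pass for Musk (limma adjusted p = 0.13). The table was also selected on the mdx/miR-133b-/- values that the comparison with Control uses for Musk. It held 375, 338, 519.8 and 832 scaled reads in mdx/miR-133b-/-, all above the Control maximum of 328. Its log2 fold change of 0.93 passed (SE 0.28, limma adjusted p = 0.00535), and the call was lost with relative log expression factors (0.53, adjusted p = 0.0962) and with the GC and length trend removed (0.54, adjusted p = 0.0961). Kcnn3 held 688, 441, 426 and 373 scaled reads and passed (log2 1.07, SE 0.23, limma adjusted p = 0.000473), a call also lost with that trend removed (0.00, adjusted p = 0.996).

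Dach2 was low in the double mutant as well, at 23.8, 26.5, 34.7 and 69.1 scaled reads. Library 4 was the highest of the 4 and still below every Control library, and the log2 fold change was -2.26 (SE 0.32, limma adjusted p = 1.34e-05).

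What the loss of miR-133b added in mdx muscle was tested by setting mdx/miR-133b-/- against mdx. None of the 8 genes passed in limma, where 19.5% of the listed genes were called (7.46% higher, 12.0% lower); 2 of the 8, Musk and Runx1, had an unadjusted p under 0.05. The median log2 fold change of the 8 genes was 0.06, beside -0.04 for all listed genes. In each of the 8 genes the 2 groups overlapped, where 10.3% of listed genes lay fully higher and 16.2% fully lower.

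Runx1 came nearest. The mdx/miR-133b-/- libraries averaged 835 ± 423 scaled reads and the mdx libraries 434 ± 95.3 (SD, n = 4 each), a log2 fold change of 0.85 with a 95% interval of 0.17 to 1.53 (limma adjusted p = 0.0766). In limma-voom on the unscaled reads Runx1 passed (0.85, adjusted p = 0.0453), the only one of the 8 to do so. It also passed without mdx/miR-133b-/- 2 (1.08, adjusted p = 0.0359) and without miR-133b-/- 2 (0.85, adjusted p = 0.0477), but without mdx/miR-133b-/- 4, its highest library, it stood at 0.54 (adjusted p = 0.291). Over all alternatives its adjusted p ranged from 0.0359 to 0.291.

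Musk averaged 516 ± 224 scaled reads in mdx/miR-133b-/- and 322 ± 92.8 in mdx (SD, n = 4 each). The log2 fold change was 0.63 (95% interval 0.04 to 1.22, limma adjusted p = 0.13), and its adjusted p ranged from 0.0709 to 0.437 over the alternatives. Without mdx/miR-133b-/- 4 the value was 0.37 (adjusted p = 0.437). Library 4 was the highest double mutant library in both Musk and Runx1.

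For the 3 receptor subunits the values of the double mutant lay on the lower side of mdx. The log2 fold change was -0.21 for Chrna1 (95% interval -0.75 to 0.33), -0.67 for Chrnd (-1.51 to 0.16) and -0.38 for Chrng (-1.63 to 0.87), with limma adjusted p-values of 0.63, 0.26 and 0.724. A single library decided the sign of 2 of them: without mdx/miR-133b-/- 2, Chrna1 stood at 0.04 and Chrng at 0.10. Chrnd passed as lower without mdx/miR-133b-/- 1 (-1.09, adjusted p = 0.0376). Intervals for the remaining genes were -0.47 to 0.68 for Ncam1, -0.28 to 1.04 for Dach2 and -0.47 to 0.51 for Kcnn3, around log2 fold changes of 0.10, 0.38 and 0.02.

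Without the mdx mutation, loss of miR-133b was read from miR-133b-/- against Control. limma called none of the 8 genes, and none of the 831 (0%); 0 of the 8 and 84 of the 831 had an unadjusted p under 0.05, and limma-voom also called 0. No member's groups were apart, where 2.77% of listed genes lay fully higher and 1.93% fully lower, and the median log2 fold change was -0.27, beside -0.07 for all listed genes. Chrng held 7.0, 7.14, 5.15 and 1.42 scaled reads in miR-133b-/-, against 4.29, 21.5, 15.4 and 13.4 in Control. These miR-133b-/- values are 3 to 10 reads per library, so a fold between the groups is poorly determined: the log2 value was -1.21 with a 95% interval of -2.46 to 0.04 (limma adjusted p = 0.498).

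Chrna1 averaged 299 ± 34.1 scaled reads in miR-133b-/- and 382 ± 47.2 in Control (SD, n = 4 each), a log2 fold change of -0.35 (95% interval -0.89 to 0.19). Chrnd stood at -0.53 (-1.36 to 0.30) and Musk at -0.40 (-0.99 to 0.19). Ncam1 (-0.15), Runx1 (0.29), Dach2 (-0.19) and Kcnn3 (0.03) were nearer to 0, with limma adjusted p-values of 0.786 to 0.976. Runx1 varied between these libraries, with a log2 SD of 0.73: 74.0, 176, 56.6 and 125 scaled reads in miR-133b-/-, against 72.0 to 86.6 in Control, and library 2, which stood apart in its fibre genes, was the highest.

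Whether the loss of miR-133b differed in size between mdx and dystrophin-sufficient muscle was tested as an interaction: the log2 fold change of mdx/miR-133b-/- over mdx, less that of miR-133b-/- over Control. The same quantity is the log2 fold change of mdx/miR-133b-/- over miR-133b-/-, less that of mdx over Control. The interaction thus contains the contrast on which the table was selected, and its p-values and share called are not independent of that selection. None of the 8 genes passed in limma, which called 0.963% of the listed genes (0.120% higher, 0.842% lower), and none in limma-voom; only Musk had an unadjusted p under 0.05 (log2 1.03, SE 0.40, adjusted p = 0.188). Between mdx/miR-133b-/- and miR-133b-/-, the contrast on which the table was selected, means differed from 2.09-fold in Kcnn3 to 21-fold in Chrng. Dach2 was 4.01-fold lower and the other 7 genes were higher, and Chrnd alone had overlapping libraries. The share of all listed genes with libraries apart in this contrast was not computed. Since the table was selected on this contrast, the separation cannot be read as particular to these genes.

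The balance of the 3 receptor subunits was compared within each library on scaled reads per kilobase of annotated exon. Of the 3 subunits' summed level, Chrng made up 10.7% ± 3.15 in mdx/miR-133b-/-, 11.4% ± 2.70 in mdx, 1.62% ± 0.792 in miR-133b-/- and 3.10% ± 1.35 in Control (SD, n = 4 each). The libraries with the mdx mutation spanned 6.61% to 15.2% and those without it 0.444% to 4.44%. Chrnd kept a share of 9.53% ± 3.26 in mdx/miR-133b-/-, 12.1% ± 1.86 in mdx, 9.61% ± 1.47 in miR-133b-/- and 10.7% ± 2.06 in Control, and its libraries overlapped across the 4 genotypes. These shares are descriptions and were not tested; the beta and epsilon subunit genes, Chrnb1 and Chrne, were not analysed here.

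**Figure D3:**
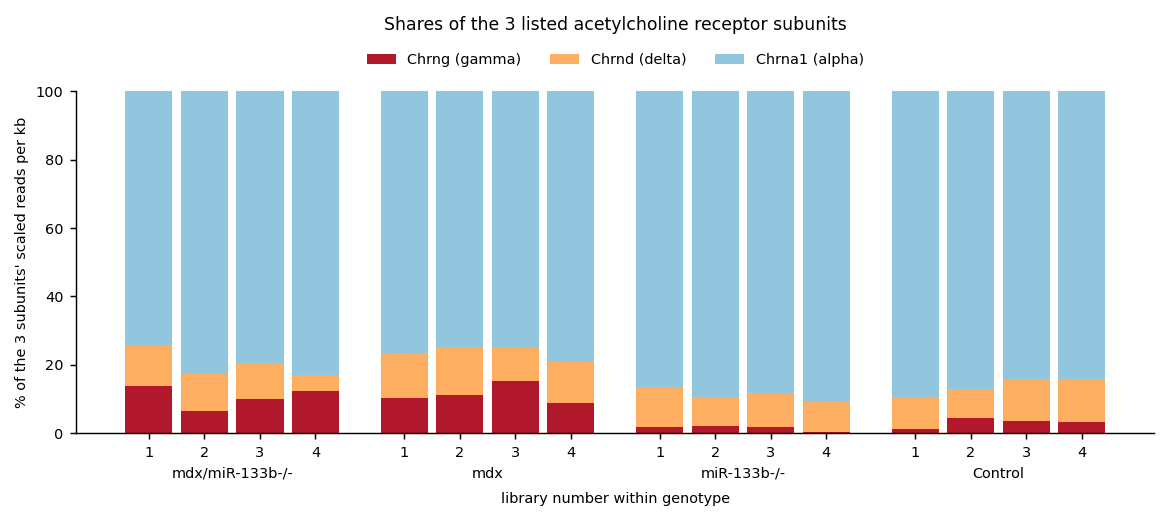
Share of Chrng, Chrnd and Chrna1 in their summed scaled reads per kilobase, 1 bar per library, grouped by genotype. The Chrng part reaches 6.61% to 15.2% in the 8 libraries with the mdx mutation and at most 4.44% in the other 8. The mdx/miR-133b-/- and miR-133b-/- libraries among them are those on whose contrast the table was selected.

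Per kilobase, Chrna1 had the highest level of the 8 genes in each genotype, at 175 ± 71.9 scaled reads in mdx/miR-133b-/-, 197 ± 61.1 in mdx, 68.2 ± 7.76 in miR-133b-/- and 87.1 ± 10.8 in Control (SD, n = 4 each). Musk came next in each genotype, and its libraries overlapped with those of Chrna1 except in mdx. The end of the order changed with genotype. In Control the levels per kilobase ran from Chrna1 (87.1) and Musk (69.0) through Ncam1 (23.0), Kcnn3 (21.7), Dach2 (17.6), Chrnd (10.9) and Runx1 (6.66) to Chrng (3.28). Neighbours whose Control libraries overlapped were Chrna1 and Musk, Ncam1 and Kcnn3, and Kcnn3 and Dach2. In mdx/miR-133b-/- and in mdx Dach2 was last, at 3.91 ± 2.12 and 2.76 ± 0.572, apart from the gene above it, Chrnd.

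Other genes of the denervation list were read beside these. The list holds 25 genes and 10 are in the table: Runx1, Dach2, Kcnn3, Chrna1, Chrng and Ncam1, described above, and Myog, Cdkn1a, Ankrd1 and Myh3. The table is a selection, so list genes that differed little between mdx/miR-133b-/- and miR-133b-/- would be missing from it. Counts out of these 10 are therefore not shares of the whole list, and the same limit holds for the other lists. The lists too were chosen with earlier results of these data known. In mdx against Control 9 of the 10 rose and Dach2 fell, where 66.2% of all listed genes were called and 44.5% were higher. The rise was 5.54 on the log2 scale for Myh3, the embryonic myosin heavy chain, 2.26 for Ankrd1, a stretch-responsive repeat protein, 1.5 for Cdkn1a, a cell cycle inhibitor, and 1.23 for Myog, which encodes myogenin (limma adjusted p = 6.2e-06, 0.00137, 0.00223 and 0.0295). In mdx/miR-133b-/- against Control 8 rose and Dach2 fell, near the 91.2% called among all listed genes, and Myog did not pass (0.76, adjusted p = 0.132). None of the 10 passed in mdx/miR-133b-/- against mdx, or in miR-133b-/- against Control, where Myog stood at -1.09 (adjusted p = 0.426). The junction list holds 26 genes, of which the 5 in the table are the receptor subunits, Musk and Ncam1 already described; the remaining 21, among them Rapsn, Dok7, Lrp4 and Ache, were not analysed here.

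Several genes ranked the libraries of a genotype alike and others did not, which was not tested. In mdx the order of the 4 libraries from high to low was 3, 2, 1, 4 for Chrna1, Chrng and Musk, and the same for Myog, Myh3 and Cdkn1a. It was 2, 3, 1, 4 for Chrnd and Ncam1, whereas Runx1, Dach2 and Kcnn3 each had another order. In mdx/miR-133b-/- the order was 1, 4, 3, 2 for Chrna1, Chrng, Ncam1 and Myh3, but 4, 3, 1, 2 for Musk and Runx1. Chrnd, Dach2, Kcnn3 and Myog each had another order there, and Cdkn1a and Ankrd1 shared 4, 1, 2, 3. In miR-133b-/- the orders of Chrna1, Chrng, Ncam1 and Musk all differed, and Runx1 and Myog shared 2, 4, 1, 3. Shared orders were also present in Control. The order there was 2, 3, 4, 1 for Chrna1, Chrng and Ncam1, and 4, 3, 2, 1 for Musk, Myog, Cdkn1a and Ankrd1. Chrnd, Runx1, Dach2, Kcnn3 and Myh3 each had another order in Control. Library 4 of the double mutant was also the highest in Ankrd1, at 5139 scaled reads, against 640 to 1456 in the other 3, and in Dach2.

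**Figure D4:**
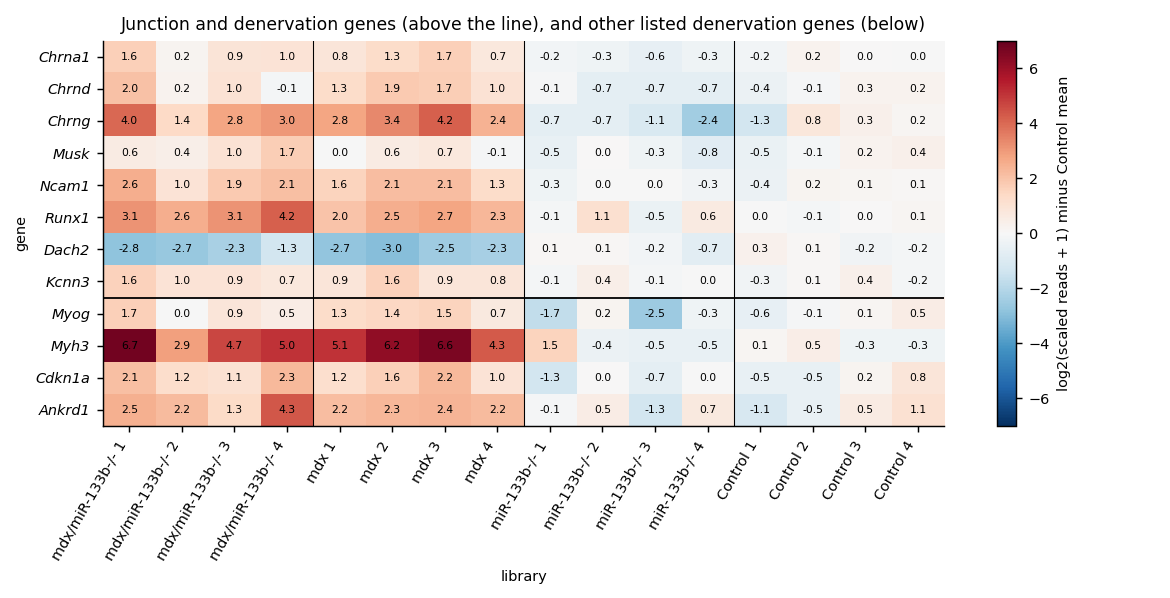
Log2(scaled reads + 1) of each library minus the mean of the 4 Control libraries, for the 8 genes (above the line) and the 4 other listed denervation genes (below). Myh3 spans 2.89 to 6.75 and Chrng 1.37 to 4.18 in the libraries with the mdx mutation, where Dach2 spans -2.99 to -1.30.

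Markers of other cell states moved with the mdx mutation in the same libraries. Of 15 regenerating fibre genes 7 are in the table, and without Chrng the summed scaled reads of the other 6 ranged from 7201 to 14724 in mdx/miR-133b-/-, 8472 to 11663 in mdx, 783 to 3133 in miR-133b-/- and 1211 to 3613 in Control. All 7 rose in mdx against Control, where 44.5% of all listed genes did. Of 16 macrophage genes 10 are in the table, and their sum ranged from 3367 to 10576 in mdx/miR-133b-/-, 5444 to 8344 in mdx, 925 to 2376 in miR-133b-/- and 1413 to 1882 in Control. In mdx against Control 9 of these 10 rose. Of the 10, 1 was at 0 in at least 1 of the 16 libraries. Of 9 genes of fibro-adipogenic progenitors, the connective tissue cells of muscle, the 4 in the table all rose, with sums of 23796 to 40949 in mdx/miR-133b-/-, 32628 to 34929 in mdx, 8553 to 19599.7 in miR-133b-/- and 11304 to 20498 in Control. The part of regenerating fibres, macrophages and progenitors in the values of the 8 genes was not tested. Single listed markers stood for 2 further lists: Flt1, of endothelial cells, fell in mdx against Control (log2 -0.75, limma adjusted p = 0.00241), and Ighm, of B cells, fell in mdx/miR-133b-/- against mdx (-1.64, adjusted p = 0.0419). Fibre genes fell in mdx/miR-133b-/- against mdx in 4 of the 5 listed, Actn3 (-0.90), Pvalb (-0.78), Ckm (-0.63) and Mb (-1.07), with limma adjusted p-values of 0.0155 to 0.027, where 12.0% of all listed genes fell.

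Genes with the most similar course over the 16 libraries were found by the root mean square difference of log2 values, each gene centred on its own mean, among listed genes that are neither among the 8 nor predicted models. Nearest to Chrna1 were Atp2a2, the slow-fibre and heart calcium pump (0.21), and Eef1a1, a translation elongation factor (0.23), where the median listed gene lay at 0.80. Nearest to Chrng were the slow and embryonic troponin genes Tnni1 (0.64) and Tnnt2 (0.74), against a median of 1.71. Musk had Tlr4 (0.25) and Ankrd10 (0.29) beside it, and Chrnd had Col5a2 and Sulf2 (0.37 each). Ncam1 was nearest to Npnt and Dio2 (0.37 each), Runx1 to Dclk1 (0.44) and Adam8 (0.50), Kcnn3 to Lsp1 (0.21) and Tpcn2 (0.24). Dach2 had Slc1a1, a glutamate transporter (0.53), and Ccdc85c (0.58), against a median of 1.61. Within the 8 genes the closest pair was Chrna1 and Kcnn3 (0.38). These distances are descriptions that share libraries and scaling.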

How the data were processed

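RNA-seq of 16 libraries in 4 groups of 4 was read from 1 deposited table. The submitters' processing notes name HISAT2, HTSeq and GRCm38; no version and no strand setting is given in the sources used here. The deposited values are a signal: whole reads times a library factor of 0.459 to 1, as 100% of the values show to within 0.001 read; no source says how the factors were set. Symbols, GRCm38 coordinates and exon lengths came from GENCODE M21. A count model was not used, since the table is a selected list with scaled values.

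Log2(value + 1) was fitted with limma 3.58.1 (R 4.3.3), with 1 mean per group over all 16 libraries, a mean-variance trend, no filter, and p-values adjusted by Benjamini-Hochberg for all 831 genes (threshold 0.05). The procedure was tested on simulated data. Fold changes on this scale understate changes of low genes. Alternatives were pseudocounts of 0.5 and 10, other library factors, a constant variance prior, limma-voom on unscaled reads, a minimum mean of 100, a replicate block, taking out the dependence on GC content and length library by library, fits on 2 groups, and leaving out each library. The 8 genes and the gene lists were chosen with earlier results of these data known. All 8 genes are named, other listed denervation and junction genes are named, and for each of the 8 the 2 genes nearest in course; list genes that passed in the comparisons on miR-133b loss are named as well. Counting error and replicate number limit precision, and no interval here covers errors in the labels.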

Additional observations from a re-analysis of the deposited data

Results flagged for a closer look

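In 2 of the 32 groups of 4 libraries checked (8 genes in 4 genotypes) 1 library lay far from the other 3 by Dixon's criterion for 4 values at the 95% level, which chance passes in about 1 in 20 groups. Kcnn3 held 692 scaled reads in mdx 2, against 399 to 409.6 in the other mdx libraries. Chrnd held 33.0 scaled reads in miR-133b-/- 1, against 21.3 to 21.8 in the other miR-133b-/- libraries, a difference that rests on 33 reads. Without mdx 2 Kcnn3 stayed higher in mdx than in Control (log2 0.85, limma adjusted p = 0.00605).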

How the results depend on the processing

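Of 845 values of the 8 genes recomputed under 26 alternatives, 816 kept their direction and their side of the threshold, 5 lost a call, 7 gained one and 17 changed sign, none of the last a called value. In a comparison of 2 groups, leaving out a library of neither group cannot move the fold change. Part of the 816 therefore kept their direction by construction. The interaction was recomputed for Musk only (25 values). In mdx against Control 7 genes were called under every alternative but 2: 4 with a minimum mean of 100, which leaves Chrnd, Chrng and Dach2 out of the test, and 6 with the GC and length trend removed. In mdx/miR-133b-/- against Control the count was 4 with that trend removed, the cause of which was not tested, and 6 to 8 under the others that kept all 8 genes in the test. In mdx/miR-133b-/- against mdx, limma-voom called 1 gene (Runx1), and the fits that leave out a library called 0 to 1. Signs changed without a call as follows. With relative log expression factors, Musk stood at -0.06 in mdx against Control, Ncam1 at 0.002 in miR-133b-/- against Control and Kcnn3 at -0.024 in mdx/miR-133b-/- against mdx. With the GC and length trend removed, Musk stood at -0.19 in mdx against Control, and Dach2 at -0.033 and Kcnn3 at -0.30 in mdx/miR-133b-/- against mdx. Leaving out 1 library moved Kcnn3 between -0.089 and 0.154 in miR-133b-/- against Control. In mdx/miR-133b-/- against mdx it moved Kcnn3 between -0.17 and 0.21, Ncam1 between -0.12 and 0.40, Chrna1 between -0.451 and 0.041, and Chrng between -0.79 and 0.10. Relative log expression factors moved the median of all listed genes in mdx against Control to 0.09, against 0.44 with the deposited scaling, and in mdx/miR-133b-/- against Control to 0.33, against 0.73. Deviations of same-numbered libraries in different genotypes had correlations of -0.28 to 0.25 over 24 pairs. Their median was -0.07, beside 0.01 over the pairs of unlike number. This cannot show whether same-numbered samples were paired. The fit with the number as a replicate block called 7 genes in mdx against Control, 7 in mdx/miR-133b-/- against Control and 0 in the other comparisons. The planned quasi-likelihood count test was not run. The number of listed genes called in mdx/miR-133b-/- against mdx was 162, and 45 with the GC and length trend removed. limma-voom called 550 listed genes in mdx against Control and 171 in mdx/miR-133b-/- against mdx.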
